A study of Homo sapiens with 105 samples.

Results

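Membrane vesicles of the gut bacterium Enterococcus faecalis were set against phosphate-buffered saline (PBS) in Caco-2 cells, a human colon adenocarcinoma line that takes on features of small-intestinal enterocytes in culture. The comparison was made up of every library labelled as incubated with E. faecalis MVs or with PBS for 10 or 24 h, which gave 15 libraries (7 with MVs and 8 with PBS) of a series that holds 66 libraries outside and 39 on lanes 2 to 4 of its flow cell 1. The MVs came from strain E. faecalis DSM 20478 and were given at 7.5e+09 bacterial extracellular vesicles (BEVs), while the PBS wells received the buffer without vesicles. The vesicles were isolated by ultracentrifugation and size exclusion chromatography, so co-purified particles of the same size are part of the treatment. Of the 15 libraries, 7 (replicates 4 and 5) had been sequenced on those lanes, and 6 of these 7 did not lie nearest to libraries of their own labelled time. They were therefore left aside, and the comparison with PBS rests on the other 8 libraries, replicates 2 and 3 of each treatment at 10 and at 24 h, all 8 of which lay nearest to their own time. The labels number the replicates without saying whether they were separate cultures, so the p-values measure only the spread between libraries, which may be technical. That spread was estimated over the 66 libraries of the series that entered the fit and not from the 8 alone.

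Gram-positive bacteria such as E. faecalis release vesicles from their cytoplasmic membrane, which carry lipoproteins, peptidoglycan fragments and lipoteichoic acid. Host cells sense bacterial lipoproteins through Toll-like receptor TLR2 and peptidoglycan fragments through NOD1 and NOD2, and these receptors feed into NF-kappaB, a family of transcription factors that drives genes of inflammation and its own inhibitors. The outer membrane vesicles (OMVs) of a Gram-negative bacterium also carry lipopolysaccharide (LPS), the ligand of TLR4. The comparison asked whether the MVs altered the transcriptome of cells of an intestinal epithelial line, and whether they did so early or late.

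The 8 libraries held between 1384362 counts (E. faecalis MVs at 24 h, replicate 2) and 7144185 counts (PBS at 10 h, replicate 3), and a count was seen for 21759 to 29406 genes. The cells carried their labelled identity, with all 10 epithelial markers, among them EPCAM, CDH1 and VIL1, above 1 CPM (1 count in 1e+06 counts) in every library and summed levels, relative to the total counts of each library, of 7257 to 8956 CPM with MVs and 7474 to 8408 CPM with PBS. For 16 markers of leukocytes, stroma, vessels and other organs the summed level ranged from 66.97 to 106.9 CPM with MVs and from 67.03 to 118.6 CPM with PBS. Of these, 5, at 0 in all 8 libraries, had no count. Another 4 were above 1 CPM in all 8 libraries, namely COL1A1 (up to 54.2 CPM), PDGFRA (up to 33.3), ALB (up to 22.5) and PECAM1 (up to 7.38). Transcripts of the mitochondrial genome made up 9.9 to 13.2% of the counts. All levels given from here on are CPM of TMM-scaled library sizes.

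No gene passed the test between E. faecalis MVs and PBS. Over both times together 0 of 18775 genes tested reached an adjusted p under 0.05 (0% called), and the lowest adjusted p was 1 (edgeR quasi-likelihood test, two-sided, Benjamini-Hochberg adjustment over all genes tested). At an unadjusted p under 0.05 there were 638 genes (3.4% of those tested), of which 289 had a higher level with MVs (1.54%) and 349 a lower one (1.86%). That is a smaller share than the 0.05 that evenly spread p-values would give, so the 638 genes are not read as a response. The same held at each time, with 0 genes at 10 h (621 unadjusted, 3.31%) and 0 genes at 24 h (631 unadjusted, 3.36%). DESeq2 called 0 genes in each of these 3 comparisons (484, 460 and 471 unadjusted), and so did limma-voom (672, 653 and 656 unadjusted). RNA was taken from whole wells, so a change in the amount of RNA per cell and a change in the number of cells of one kind cannot be told apart.

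The 95% interval of each gene's effect says which sizes of change these libraries exclude for that gene. It is not adjusted for the number of genes tested, so it is not the size that the test would have called. Over both times it lay within a 2-fold change either way for 15443 of 18775 genes (82.25%) and within a 1.5-fold change for 12108 (64.49%). This share was larger for the more abundant genes. Among genes with a mean of 10 to 100 CPM over the 8 libraries the interval lay within 2-fold for 8421 of 8432, and among those over 100 CPM for 2228 of 2230. Between 1 and 10 CPM it did so for 4790 of 7147 genes, and under 1 CPM for 4 of 966. At this depth a 2-fold change was thus not excluded for nearly all genes under 1 CPM. The log2 fold change exceeded 1 in either direction for 173 genes, of which 70 were at 1 CPM or more and 0 at 10 CPM or more. At single times the intervals were wider and lay within 2-fold for 13381 genes at 10 h (71.27%) and 13266 at 24 h (70.66%).

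**Figure D1:**
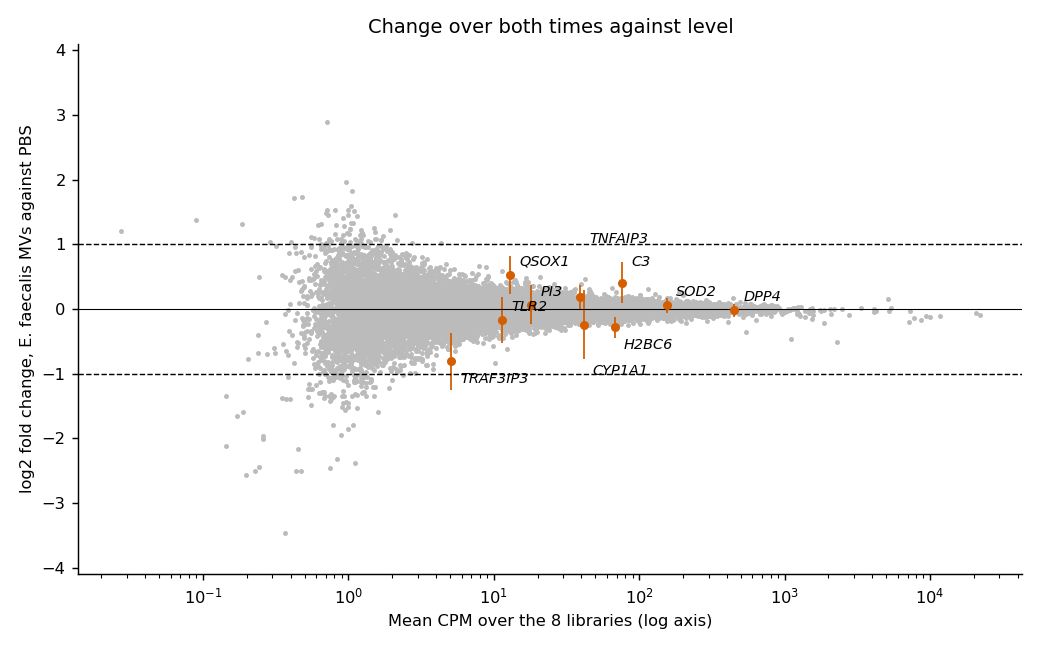
Log2 fold change of E. faecalis MVs against PBS over both times (vertical axis) for the 18775 genes tested against their mean level over the 8 libraries in CPM (horizontal log axis), with dashed lines at a 2-fold change and 10 genes of the text in orange with their 95% intervals. The cloud narrows to the right, and 0 genes at 10 CPM or more lie outside the dashed lines.

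Genes of the NF-kappaB pathway were near their PBS level. All 27 listed members were tested, 0 passed, and 2 had an unadjusted p under 0.05, both higher with MVs (background 1.54% of genes higher). The median log2 fold change of the list was 0.09, against 0.00 over all genes tested, with 21 of 27 members above 0 and a range of -0.15 to 0.62. In 5 of 27 members the MV library was above the PBS library of the same time and replicate number in 4 of 4 pairs, which held for 5.66% of all genes. The interval lay within a 2-fold change for 26 of the 27.

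TNFAIP3 encodes A20, an enzyme that shuts down NF-kappaB signalling and whose own gene is a classical NF-kappaB target. The gene lies at chr6:137867214-137883314 on the plus strand of GRCh38. The 100 bases before its start are shown because they hold 2 matches to the NF-kappaB consensus, in capitals, out of the 300-base promoter entry of RefSeq (GRCh38.p14, chr6:137867114-137867213, plus strand).

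TNFAIP3: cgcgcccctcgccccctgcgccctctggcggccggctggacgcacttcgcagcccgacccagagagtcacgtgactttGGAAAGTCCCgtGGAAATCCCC

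Searched on both strands, the consensus occurred in 3956 of 35116 RefSeq promoters of 300 bases (11.3%), so the match describes the sequence and not its use in these cells. With PBS at 10 h TNFAIP3 stood at 42.015 CPM in replicate 2 and 39.5 in replicate 3, and with MVs at 54.6 and 40.8. At 24 h the values were 35.9 and 29.4 CPM with PBS and 35.8 and 35.1 with MVs. The MV library was the higher one in 3 of 4 pairs, with the largest gap in replicate 2 at 10 h, and the groups overlapped at both times. The log2 fold change over both times was 0.18 ± 0.09 (SE, 95% interval -0.0025 to 0.37, unadjusted p = 0.0528, edgeR). NFKBIA, which encodes the inhibitor that holds NF-kappaB in the cytoplasm, had a log2 fold change of 0.06 ± 0.12 (95% interval -0.19 to 0.30). IKBKE encodes a kinase related to those that release NF-kappaB. It stood at 13.2 and 15.4 CPM with PBS and 18.6 and 19.5 with MVs at 10 h, and at 12.1 and 13.3 with PBS and 24.4 and 15.3 with MVs at 24 h. Of the 4 MV libraries 3 lay above every PBS library, and replicate 3 at 24 h lay just under the highest of them. Its log2 fold change was 0.42 ± 0.14 (95% interval 0.14 to 0.69, unadjusted p = 0.00395, adjusted p = 1, edgeR), higher in 4 of 4 pairs. BIRC3, an inhibitor of apoptosis, had 0.49 ± 0.24, higher in 2 of 4 pairs. The subunit genes NFKB1 (0.10 ± 0.07), NFKB2 (0.33 ± 0.23), REL (0.08 ± 0.11) and RELB (0.14 ± 0.19) all had intervals that included 0.

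Receptors that sense bacterial products were expressed unevenly. Of 32 listed pattern recognition receptors and adaptors, 19 were tested, 0 passed, 1 had an unadjusted p under 0.05, and the median log2 fold change was 0.04. TLR2 was measured at 11.5 and 8.76 CPM with PBS and 11.99 and 6.36 with MVs at 10 h. At 24 h it was measured at 16.5 and 10.1 CPM with PBS and 17.9 and 8.57 with MVs. Replicate 2 was above replicate 3 in both treatments at both times, and the groups overlapped. The log2 fold change was -0.17 ± 0.18 (95% interval -0.52 to 0.18). NOD1 (0.04 ± 0.17), the adaptor MYD88 (-0.03 ± 0.10) and the NOD-dependent kinase RIPK2 (-0.21 ± 0.13, lower in 4 of 4 pairs) also had intervals that included 0. The 1 gene under an unadjusted p of 0.05 was TICAM1, the adaptor of TLR3 and TLR4, with 0.29 ± 0.14. NOD2 was too low to be tested, with 11 counts in the 4 MV libraries and 8 in the 4 PBS libraries, whose totals were 17248319 and 20835138. TLR4 had 1 count in the 8 libraries, TLR1 had 1 and TLR6 had 3. LY96, which encodes the TLR4 co-receptor MD-2, had no count, which allows up to 3 counts in each of these totals.

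Many chemokine and cytokine transcripts were at low counts, while a few were measured well. Of 17 listed chemokines 8 were tested and 0 passed, and of 21 cytokines 10 were tested and 0 passed. Their median log2 fold changes were 0.30 and 0.05, and 0 of either list had an unadjusted p under 0.05. CXCL8, which encodes the neutrophil attractant interleukin 8, had 9 counts in the 4 MV libraries and 5 in the 4 PBS libraries and was not tested. CXCL1 (0.52 ± 0.48), CXCL2 (-0.30 ± 0.26) and CXCL3 (0.43 ± 0.35), which act on the same receptor, had log2 fold changes with wide errors. At the other end, CXCL16, a membrane-bound chemokine, had a mean of 60.4 CPM over the 8 libraries and a log2 fold change of 0.03 ± 0.09, and TGFB1, which encodes transforming growth factor beta 1, had a mean of 110.3 CPM and 0.04 ± 0.11. IL32 (-0.04 ± 0.08), IL18 (0.06 ± 0.18) and LIF (0.20 ± 0.14) also had intervals within a 1.5-fold change. CCL28, a chemokine of mucosal epithelia, had 0.17 ± 0.17, and CCL20, which attracts dendritic cells and lymphocytes, had 0.08 ± 0.87. CXCL10, an interferon-induced chemokine, was higher with MVs in 4 of 4 pairs, with a log2 fold change of 1.71 ± 1.17 that rests on 14 counts in the 8 libraries. Of 8 immune genes that the study lists for incubation with these vesicles, chosen on these samples and therefore no independent evidence, 2 were tested and 0 passed. These were IFIT1, an interferon-induced gene (0.01 ± 0.57), and IL1A, which encodes interleukin 1 alpha (-0.25 ± 0.86). Of the other members, IL6 had 0 counts with MVs and 3 with PBS, CASP1 1 and 0, CCL25 1 and 4, and CXCL11 had no count in either.

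Among 24 genes of mucosal defence 17 were tested, 0 passed, 1 had an unadjusted p under 0.05 and the median log2 fold change was 0.07. The 1 gene was C3, the central component of complement, which epithelial cells can secrete (chr19:6677704-6730562, minus strand). At 10 h it stood at 63.2 and 81.5 CPM with PBS and at 75.8 and 105.5 with MVs. At 24 h it stood at 52.5 and 67.9 CPM with PBS and at 64.5 and 101.7 with MVs. The MV library was higher in 4 of 4 pairs, while replicate 3 was above replicate 2 in both treatments, so that the groups overlapped. The log2 fold change was 0.41 ± 0.15 (95% interval 0.10 to 0.72, unadjusted p = 0.0112, adjusted p = 1, edgeR). PI3, which encodes the protease inhibitor elafin (chr20:45174902-45176544, plus strand), stood at 16.98 and 24.5 CPM with PBS and 16.4 and 26.8 with MVs at 10 h, and at 13.2 and 15.7 with PBS and 13.6 and 18.0 with MVs at 24 h. The groups overlapped at both times, and the log2 fold change was 0.07 ± 0.15 (95% interval -0.23 to 0.37). SOD2, the mitochondrial superoxide dismutase and an NF-kappaB target, had 0.06 ± 0.06 (95% interval -0.05 to 0.17), from 134 to 183 CPM with MVs and from 142 to 166 with PBS. TFF3, a trefoil factor of mucus, had -0.18 ± 0.12, and CD59, which protects cells from complement, had 0.12 ± 0.09.

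**Figure D2:**
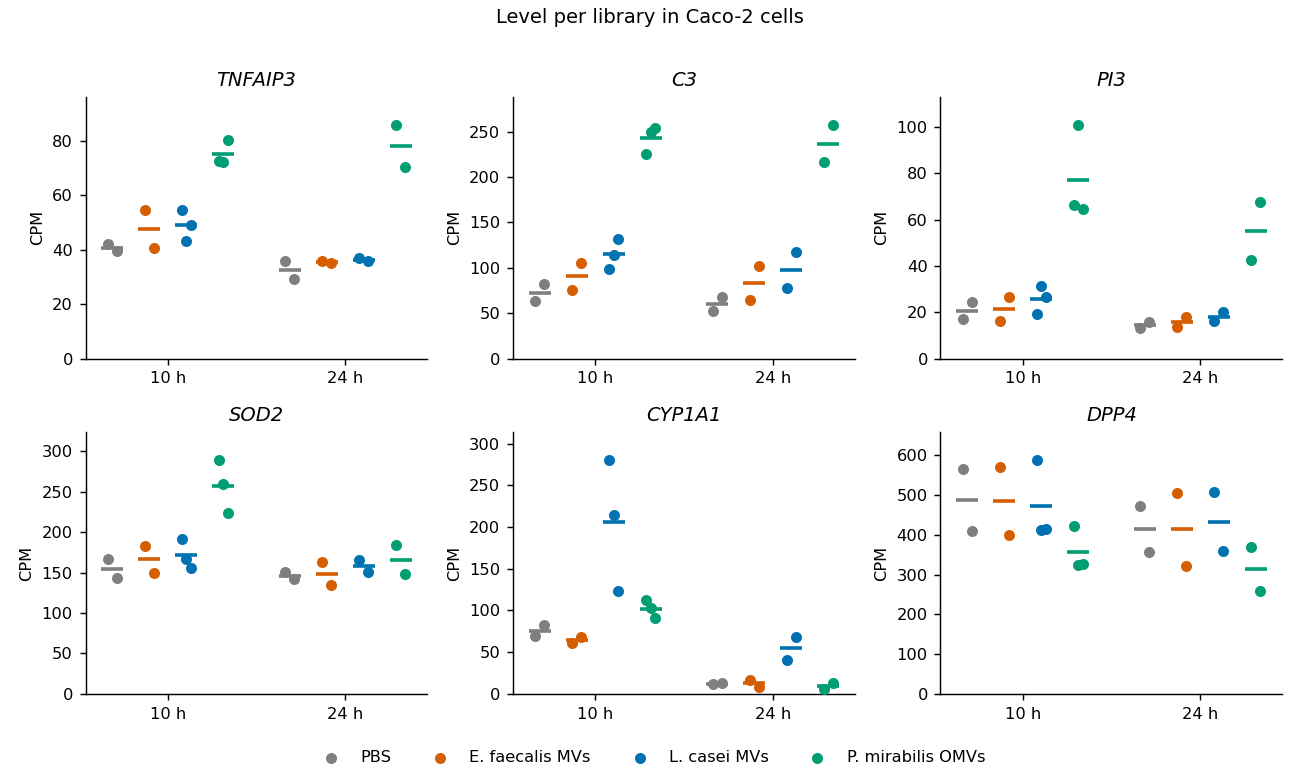
Level in CPM of TNFAIP3, C3, PI3, SOD2, CYP1A1 and DPP4 in each library with PBS, E. faecalis MVs, L. casei MVs and P. mirabilis OMVs at 10 and 24 h (points are libraries, bars group means, vertical axes linear). For C3 and PI3 the OMV libraries lie above all PBS and E. faecalis MV libraries, whose ranges overlap, and for CYP1A1 the L. casei MV libraries lie above the others.

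The genes with the smallest unadjusted p among those of at least 1 CPM had varied functions, and 0 of the 18775 genes passed. TRAF3IP3, which encodes an adaptor that binds TRAF3 (chr1:209756032-209782320, plus strand), stood at 5.94 and 5.98 CPM with PBS and at 4.06 and 3.29 with MVs at 10 h. At 24 h it stood at 8.35 and 6.45 CPM with PBS and at 2.15 and 4.37 with MVs. In the libraries of the fit every MV library lay under every PBS library, the lowest value resting on 3 counts. The log2 fold change was -0.81 ± 0.22 (95% interval -1.25 to -0.37, unadjusted p = 0.000348, edgeR). In the libraries left aside, scaled with the whole series, the treatments overlapped, with 3.45, 5.89 and 6.66 CPM with MVs and 6.64, 4.74, 4.25 and 3.29 with PBS. QSOX1 encodes a sulfhydryl oxidase that forms disulfide bonds in secreted proteins (chr1:180154869-180204030, plus strand). It stood at 10.2 and 12.8 CPM with PBS and 18.1 and 19.5 with MVs at 10 h, and at 8.03 and 11.1 with PBS and 11.5 and 12.9 with MVs at 24 h. Its groups were apart at each time, with 0.53 ± 0.15 (unadjusted p = 0.000507, edgeR). Among the other genes with a positive log2 fold change were DCAF10, an adaptor of the CUL4 ubiquitin ligase (0.38 ± 0.11), MFHAS1, a leucine-rich repeat protein linked to Toll-like receptor signalling (0.27 ± 0.08), DOP1B (0.33 ± 0.10), the sorting nexin SNX11 (0.33 ± 0.11) and CCDC17 (1.02 ± 0.31). Those with a negative one included the peroxisomal membrane protein PXMP2 (-0.58 ± 0.16), ALDH6A1 of valine catabolism (-0.23 ± 0.07), the vesicle tethering subunit TRAPPC1 (-0.33 ± 0.10) and 3 histone genes, H2BC6, H2BC17 and H2AC13. Each of these had the same sign in 4 of 4 pairs, as 5.66% of all genes had on the higher and 6.4% on the lower side. They were picked for a small p in these same libraries, so the shared sign largely follows from that choice and is no separate evidence. At 10 h PXMP2 was also under its PBS libraries (12.3 and 12.4 CPM) in every L. casei MV and P. mirabilis OMV library (6.67 to 8.49).

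In all, 23 lists with 463 genes were examined, of which 380 were tested. Of these, 4 had an unadjusted p under 0.05 with a higher and 2 with a lower level (1.579%, against 3.4% of all genes). In 4 of 4 pairs 21 of the 380 were higher, which held for 5.66% of all genes. Genes lower in 4 of 4 pairs, 6.4% of all genes, were not tallied over the lists together. The interval lay within a 2-fold change for 338 of the 380 (88.95%), and the median log2 fold change was -0.01.

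Epithelial programmes were measured with narrow intervals. For 24 genes of tight and adherens junctions the median log2 fold change was 0.02, and all 24 intervals lay within a 2-fold change. OCLN, which encodes the junction strand protein occludin, had -0.11 ± 0.06 (lower in 4 of 4 pairs, unadjusted p = 0.0502, edgeR), and CLDN3, a claudin that tightens the junction, had -0.19 ± 0.13. Of 26 genes of enterocyte differentiation 23 were tested, with a median of -0.02 and 22 intervals within 2-fold. DPP4, a peptidase of the brush border (chr2:161992245-162074394, minus strand), stood at 566 and 409 CPM with PBS and 570 and 400 with MVs at 10 h, and at 472 and 356 with PBS and 506 and 322 with MVs at 24 h. Its levels differed between replicate numbers and overlapped between treatments, and the log2 fold change was -0.02 ± 0.05 (95% interval -0.12 to 0.08). For 28 genes of mitosis and DNA replication the median was -0.03, with all 28 intervals within 2-fold. The lists for interferon response (20 tested), immediate early genes and ERK feedback (24), NRF2 targets (18), amino acid and ER stress (23), cytosolic heat shock (12) and endocytosis and lysosome (24) had medians of 0.01, 0.02, -0.03, -0.03, 0.01 and -0.03, with 0 genes of these lists under an unadjusted p of 0.05. HMOX1, the heme oxygenase that NRF2 induces, had -0.09 ± 0.12, and MYC had 0.11 ± 0.16. The 13 protein-coding genes of the mitochondrial genome had a median of -0.11 and 12 of them were below 0, where 48.55% of all genes were above 0, with 0 under an unadjusted p of 0.05. The pairs differed, with median log2 ratios of -0.34 in replicate 2 and -0.02 in replicate 3 at 10 h, and of 0.08 and -0.12 at 24 h. Against the same PBS library of 10 h replicate 2, L. casei MVs had -0.45, P. mirabilis OMVs -0.39 and LPS in the medium -0.30. Of 8 tested genes of the aryl hydrocarbon receptor list the median was -0.07, and of 13 tested genes of detoxification and xenobiotic transport -0.05. The 4 tested metallothioneins and zinc transporters had a median of -0.32, with intervals within 2-fold for 2 of them.

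**Figure D3:**
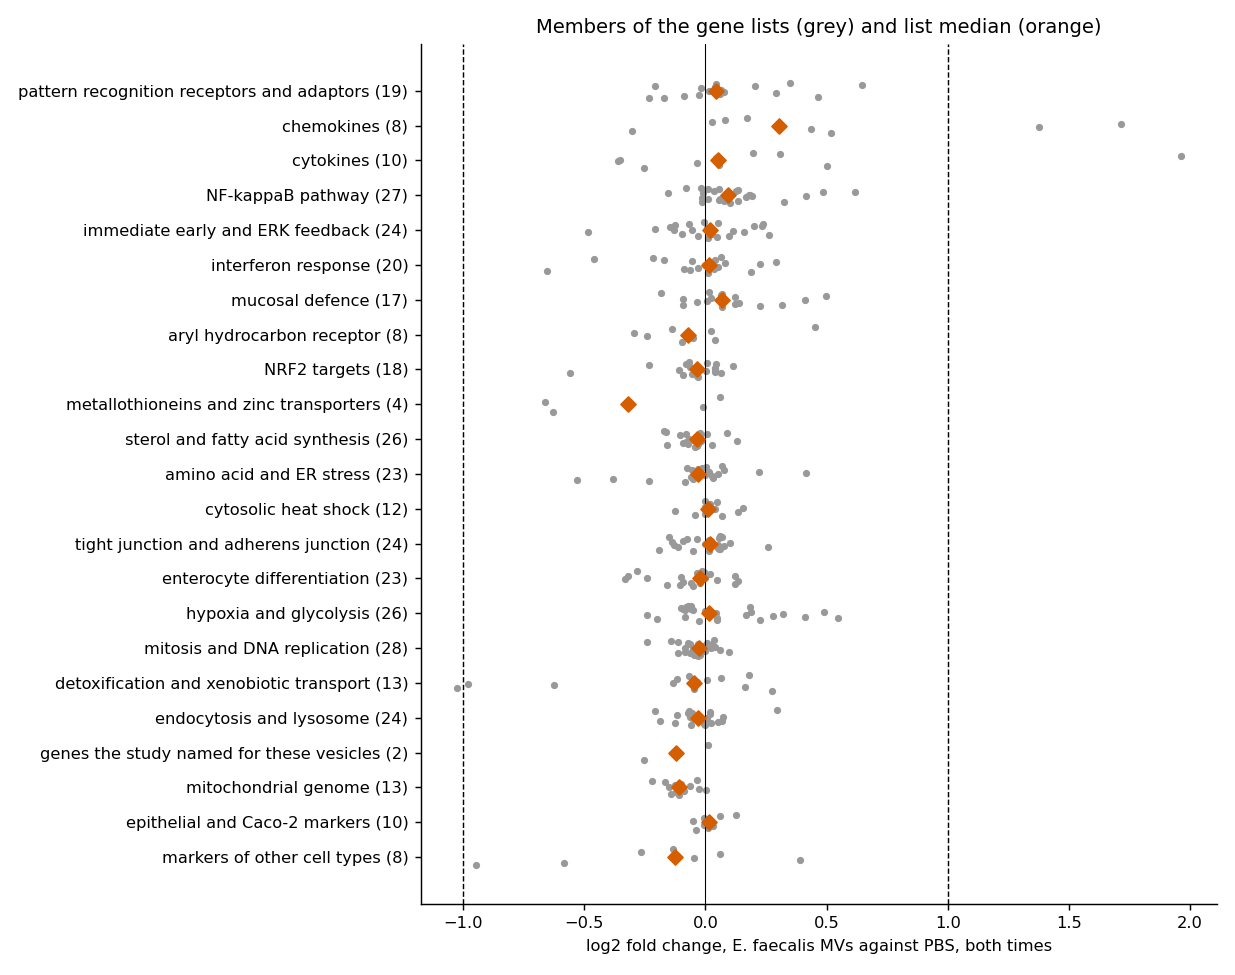
Log2 fold change of E. faecalis MVs against PBS over both times for the tested members (grey points) of 23 gene lists, with each list's median in orange and the number tested in parentheses. The medians lie near 0 except in lists with few tested members or low counts, such as the chemokines at 0.30.

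The effects at 10 and 24 h were then compared. Over all 18775 genes the log2 fold change had the same sign at both times for 9479 (50.49%), and for 347 of the 621 genes with an unadjusted p under 0.05 at 10 h (55.88%). An unadjusted p under 0.05 at both times was seen for 23 genes, 14 of them with the same sign. No gene passed the test of the difference between the times (0 of 18775, 0%), while 631 had an unadjusted p under 0.05 (3.36%), as did 481 with DESeq2 (0 called) and 685 with limma-voom (0 called).

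Several lists had medians of opposite sign at the 2 times, among them immediate early genes and ERK feedback (0.12 at 10 h and -0.07 at 24 h) and amino acid and ER stress (0.02 and -0.08). Hypoxia and glycolysis and sterol and fatty acid synthesis are described further, chosen after their values were seen. Of 26 tested genes of hypoxia and glycolysis, 22 had a positive log2 fold change at 10 h (median 0.18) and 5 at 24 h (median -0.18), against 49.09% and 48.71% of all genes. Of these, 8 had an unadjusted p under 0.05 for the difference between the times, all with the lower effect at 24 h (background 1.86%), and 0 passed. Of 26 genes of sterol and fatty acid synthesis, 21 were positive at 10 h (median 0.08) and 2 at 24 h (median -0.14), and 4 had an unadjusted p under 0.05 for the difference, with 0 past the test. Values of several genes are given as examples, chosen after they were seen. PDK1, a kinase that inhibits pyruvate dehydrogenase, stood at 20.4 and 15.9 CPM with PBS and 45.9 and 22.4 with MVs at 10 h. At 24 h it stood at 98.3 and 50.0 CPM with PBS and 63.0 and 50.8 with MVs. PDK1 was thus above its PBS library in both pairs at 10 h, and at 24 h it was below it in replicate 2 and within 1 CPM of it in replicate 3. The PBS level itself was higher at 24 h than at 10 h. DDIT4, a hypoxia- and stress-induced inhibitor of mTOR, stood at 5.09 and 9.32 CPM with PBS and 19.0 and 16.01 with MVs at 10 h. At 24 h it stood at 13.55 and 21.35 CPM with PBS and 8.60 and 15.8 with MVs. Its groups did not overlap at 10 h and overlapped at 24 h. In a fit of the 8 libraries alone, DDIT4 passed at 10 h with a log2 fold change of 1.22 ± 0.24 (adjusted p = 0.0492, edgeR), whereas in the fit of 66 libraries it had 1.28 with an unadjusted p of 0.14. In that smaller fit 4 genes passed the test of the difference between the times, CKB, DDIT4, PDK1 and PLOD2, all with the lower effect at 24 h.

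The other treatments of the series were set against the same 4 PBS libraries and so share any deviation of those libraries, and their values are given side by side. For hypoxia and glycolysis the median log2 ratio of E. faecalis MVs to the PBS library of the same replicate number was 0.25 in replicate 2 and 0.08 in replicate 3 at 10 h, and -0.30 and -0.06 at 24 h. With L. casei MVs it was 0.25, 0.06, -0.14 and 0.05 in the same order, with P. mirabilis OMVs 0.22, 0.13, -0.21 and 0.05, and with LPS in the medium 0.32, 0.20, -0.32 and 0.10. In every treatment the values of replicate 2 were the larger ones in size. The part of the shared PBS libraries in these values was not tested.

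**Figure D4:**
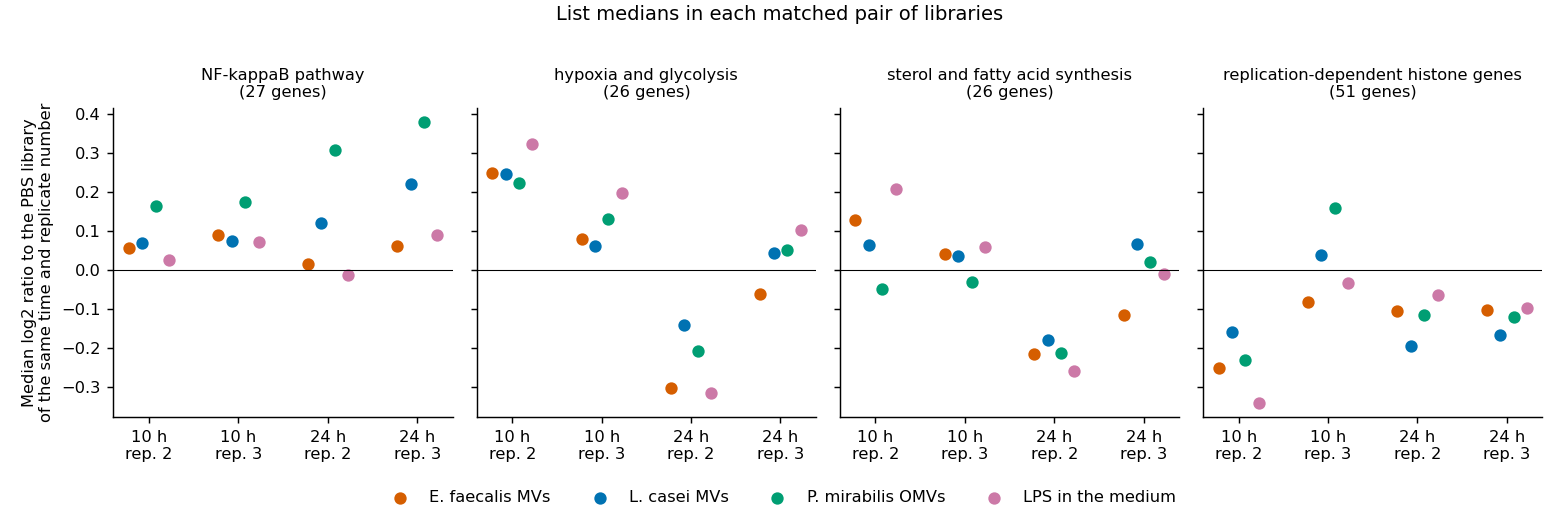
Median log2 ratio of each treated library to the PBS library of the same time and replicate number, for genes of the NF-kappaB pathway, hypoxia and glycolysis, sterol and fatty acid synthesis, and histones (vertical axis), in 4 pairs for each of E. faecalis MVs, L. casei MVs, P. mirabilis OMVs and LPS in the medium. For hypoxia the replicate 2 pairs lie above 0 at 10 h and below 0 at 24 h in each treatment.

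Where the vesicles of E. faecalis differed from other vesicles was tested directly, without PBS. P. mirabilis DSM 4479 OMVs had been given at 6.0e+09 BEVs and entered with 3 libraries at 10 h and 2 at 24 h. The bacteria and the particle doses differ together and cannot be told apart. Between E. faecalis MVs and these OMVs, 87 of 18775 genes passed (0.463%), of which 46 were lower with E. faecalis MVs (0.245%) and 41 higher (0.218%), while 1486 had an unadjusted p under 0.05 (7.91%). Their own values against PBS were small on the E. faecalis side. The 46 lower genes had a median log2 difference to the OMVs of -0.49, with a median log2 fold change against PBS of 0.02 for E. faecalis MVs (range -0.34 to 0.50) and of 0.54 for the OMVs, which share the PBS libraries. For 36 of the 46 the interval of E. faecalis MVs against PBS lay within a 1.5-fold change. That held for 64.49% of all genes tested and for 97.96% of those at 10 to 100 CPM. The 41 higher genes had a median difference of 0.40, with 0.01 against PBS for E. faecalis MVs and -0.39 for the OMVs, and 38 of the 41 intervals lay within 1.5-fold. All 87 were chosen by a test that used the same E. faecalis MV libraries, so these values only describe them.

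The genes lower with E. faecalis MVs than with OMVs included products of NF-kappaB signalling and mucosal defence. TNFAIP3, whose promoter stretch is given above, was measured at 72.5, 72.4 and 80.2 CPM with OMVs at 10 h and at 86.0 and 70.3 at 24 h. Every one of these values was above the highest E. faecalis MV library, and the log2 difference was -0.87 ± 0.08 (adjusted p = 3.28e-13, edgeR). C3 was measured at 225, 249 and 254 CPM with OMVs at 10 h and at 216 and 258 at 24 h, also above all 4 E. faecalis MV libraries (-1.42 ± 0.13, adjusted p = 6.33e-09, edgeR). PI3 was at 66.3, 101.1 and 64.5 CPM with OMVs at 10 h and 42.7 and 67.9 at 24 h, and differed by -1.85 ± 0.13 (adjusted p = 4.09e-18, edgeR). Of 27 tested genes of the NF-kappaB list 4 passed, all lower with E. faecalis MVs. Of 17 tested genes of mucosal defence 3 passed, also all lower, where 0.245% of all genes tested passed on that side. These 3 include PIGR, which rests on few counts as given below. SOD2 (-0.42 ± 0.05), IKBKE (-0.74 ± 0.12), RELB (-0.78 ± 0.17) and the cytokine IL32 (-0.72 ± 0.08) were lower too, as was EHF, an epithelial transcription factor (-1.97 ± 0.34). CCL20 (-2.29 ± 0.70) and the immunoglobulin receptor PIGR (-2.52 ± 0.77) passed on few counts, 18 and 11 in the 8 libraries of E. faecalis MVs and PBS. They stood at up to 3.30 and 2.45 CPM with OMVs, and at up to 0.88 and 0.66 with E. faecalis MVs. The low-count filter took in all groups of the series, so both may have been tested only through groups where they are high. Nothing further is read from these 2 results. OR2I1P, an olfactory receptor gene at chr6:29550407-29557773, differed by -1.53 ± 0.13. It overlaps UBD on the opposite strand (chr6:29555515-29559732), a gene that encodes an inflammation-induced ubiquitin-like modifier, and the counting strand is not stated, so reads of the 2 genes cannot be told apart. Against PBS, OR2I1P had 0.37 ± 0.16, higher in 4 of 4 pairs and short of the test.

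Genes higher with E. faecalis MVs than with OMVs included enterocyte genes. DPP4 was measured at 421, 323 and 326 CPM with OMVs at 10 h and at 369 and 258 at 24 h, and in replicates 2 and 3 each value was lower than that of E. faecalis MVs at the same time (0.37 ± 0.05, adjusted p = 3.84e-07, edgeR). MEP1A, a brush border protease (0.69 ± 0.14), and LCT, the lactase of the brush border (0.62 ± 0.16, adjusted p = 0.0498, edgeR), were the other 2 of the 3 enterocyte genes that passed. LDHD, the D-lactate dehydrogenase (0.74 ± 0.14), TMEM150B (0.82 ± 0.18), STUM (1.05 ± 0.26), the long non-coding RNA LINC02889 (0.78) and ENSG00000277581 (2.21 ± 0.66) had the largest differences in this direction. ENSG00000277581 passed on few counts, 9 and 8 at 10 h and 2 and 8 at 24 h with E. faecalis MVs. With OMVs it stood at 0.22 to 0.48 CPM.

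**Figure D5:**
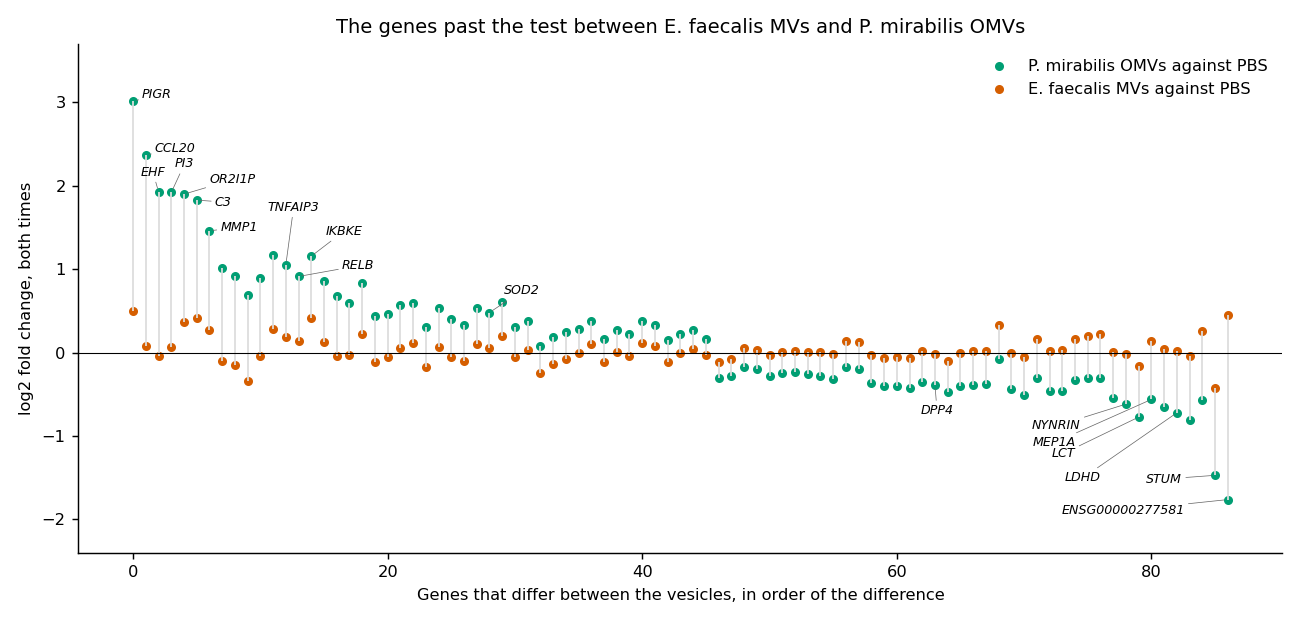
The 87 genes that differed between E. faecalis MVs and P. mirabilis OMVs, in order of that difference, with the log2 fold change against PBS of E. faecalis MVs in orange and of the OMVs in green (vertical axis). The orange points stay between -0.42 and 0.50, while the green points carry most of the difference on both sides.

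The number of genes that passed against the OMVs depended on the libraries. Without the replicate block 11 passed, all among the 87, and with all libraries of the series 2 passed with the block (PI3 and EHF) and 1 without it (PI3). With a block within each time 260 passed, which held all 87. Leaving out 1 library, PBS included, left between 25 and 86 genes. The count was 25 without E. faecalis MVs at 24 h replicate 3, 35 without 10 h replicate 3, 46 without 24 h replicate 2 and 57 without 10 h replicate 2. It was 55 without OMVs at 10 h replicate 2, and 48 and 55 without replicates 2 and 3 at 24 h.

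Against the MVs of another Gram-positive bacterium, L. casei DSM 20011, 2 of 18775 genes passed (0.0107%), both lower with E. faecalis MVs, while 1136 had an unadjusted p under 0.05 (6.05%). L. casei MVs had been given at 1.5e+11 BEVs, so species and dose again cannot be told apart. CYP1A1 encodes a cytochrome P450 that is a standard target of the aryl hydrocarbon receptor, a sensor of plant, microbial and environmental compounds (chr15:74719542-74725536, minus strand). The 100 bases before its start are shown because the receptor binds a core of GCGTG, in capitals, of which this RefSeq stretch holds 1 match (GRCh38.p14, chr15:74725537-74725636, minus strand).

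CYP1A1: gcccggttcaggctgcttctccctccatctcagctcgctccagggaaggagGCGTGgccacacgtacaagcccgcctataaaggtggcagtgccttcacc

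Searched on both strands, the core occurred in 12832 of 35116 promoters of 300 bases (36.5%). CYP1A1 stood at 69.2 and 82.8 CPM with PBS and at 61.2 and 68.4 with E. faecalis MVs at 10 h, and at 11.7 and 12.9 with PBS and 16.5 and 8.74 with MVs at 24 h. With L. casei MVs it was at 280, 215 and 123 CPM at 10 h and at 40.5 and 68.5 at 24 h. At each time every L. casei library was above every E. faecalis MV and PBS library. The log2 difference between E. faecalis and L. casei MVs was -2.09 ± 0.23 (95% interval -2.55 to -1.62, adjusted p = 9.65e-08, edgeR), while E. faecalis MVs against PBS gave -0.24 ± 0.26 (95% interval -0.78 to 0.29). GSTP1, a glutathione transferase, differed by -0.25 ± 0.05 from L. casei MVs (adjusted p = 0.0333, edgeR) and by -0.03 ± 0.05 from PBS. When 1 library was left out, 1 to 3 genes passed and CYP1A1 was always among them. GSTP1 no longer passed when any of the 4 E. faecalis MV libraries, or any L. casei MV library other than replicate 3 at 24 h, was left out. With all libraries of the series 0 passed, both with and without the block.

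RNA taken from E. faecalis MVs had been transfected in the same study at 5 ng and set against 5 ng of a control siRNA. The difference between the effect of the vesicles and that of their RNA passed the test for 0 of 18775 genes (0%), with 746 at an unadjusted p under 0.05 (3.97%, edgeR). DESeq2 and limma-voom also called 0 genes (592 and 801 unadjusted). Intervals were not counted for this difference, which draws on the spread of 4 kinds of libraries, so the effects are not shown to be alike. Without PBS at 24 h replicate 2, 1 gene passed.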

How the data were processed

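Libraries were made from total Caco-2 RNA after rRNA depletion and read as pairs on a DNBSEQ-G400 instrument. The authors aligned the reads to GRCh38 with STAR, marked duplicates, and counted primary alignments of mapping quality at least 10 with featureCounts. The counting strand is not given in the sources used here. The deposited values are raw counts per gene (63241 genes), not normalised by the authors.

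Groups followed the labels. The edgeR (4.0.16, R 4.3.3) quasi-likelihood F test was fitted to the 66 libraries not sequenced on lanes 2 to 4 of flow cell 1. It had a coefficient per treatment and time, the replicate number as a block, and TMM. The low-count filter, filterByExpr, was run over all libraries and groups of the series, including those left aside. It kept 18775 of 46395 genes with a count. Genes under an adjusted p of 0.05 passed. Standard errors and 95% intervals came from the same model. CPM are counts per 1e+06 of TMM-scaled library size. The total count per library limits precision for low genes, and intervals and floors cover counting error and library spread only. DESeq2 (1.42.0) and limma-voom (limma 3.58.1) were alternatives. Only the edgeR test over both times, with the replicate block, was tried on simulated counts.

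The block was part of the comparison as defined. Same-numbered E. faecalis MV and PBS libraries deviated together (r = 0.69 at 10 h and 0.66 at 24 h over 10662 genes), as did 10 and 24 h libraries of the MVs (0.62) and of PBS (0.62). The labels do not say what a replicate number stands for.

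The members and lists were chosen with earlier results of these data known. Named genes were those past the test (up to 15 each way), the 10 with the smallest unadjusted p each way at 1 CPM or more over both times where under 10 passed, up to 4 per list, a set of inflammation and enterocyte genes, and up to 5 each way among those that passed against other vesicles. CXCL16, TGFB1, IL18, NFKB1, NFKB2, REL, RELB, NOD1, MYD88, the receptors with few counts, the histone genes and the genes of the time comparison were chosen after their values were seen. Gene positions are from GENCODE (GRCh38). Promoter entries (RefSeq, GRCh38.p14) were used for TNFAIP3 and CYP1A1. The NF-kappaB consensus and GCGTG were searched on both strands.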

Additional observations from a re-analysis of the deposited data

Results flagged for a closer look

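Dixon's test was run on 55 sets of 4 libraries of a group, each for a gene or for the total counts. The sets took in all replicates, those of lanes 2 to 4 included, with gene levels scaled together. Of these sets, 4 held a library far from the others, where chance gives about 1 in 20. For DPP4 with E. faecalis MVs at 10 h, replicate 2 stood at 566 CPM and the others at 395 to 396. For CXCL1 with PBS at 10 h, replicate 2 stood at 0.42 CPM, which is 1 count, and the others at 1.58 to 1.75. For TLR2 with PBS at 10 h, replicate 3 stood at 8.68 CPM and the others at 11.1 to 11.5. For CXCL5 with PBS at 24 h, replicate 5, in the lanes left aside, stood at 0.165 CPM and the others at 0. That value is 1 count, and with the other 3 libraries at 0 any single count would have been picked out, so nothing is read from it.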

How the results depend on the processing

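Over both times together, 0 genes passed between E. faecalis MVs and PBS in every alternative run (all libraries of the series, other blocks, RLE size factors, no filter, other tools, flow cell and lane as covariates, each library left out in turn). Without the replicate block the unadjusted count fell from 638 to 315, and with a block within each time it was 793. At 10 h 1 gene passed with the 8 libraries alone, and 4 genes passed the difference between the times in that fit. At 24 h 0 to 2 genes passed when 1 library was left out, KPNA4 without E. faecalis MVs replicate 3, and ENSG00000185641 and ENSG00000283041 without PBS replicate 2. Leaving out a library gave 0 to 0 genes over both times, at 10 h and for the difference between the times. Against P. mirabilis OMVs 87 genes became 11 without the replicate block, 1 with all libraries of the series without the block and 2 with it, 260 with a block within each time and 139 with these covariates, and 25 to 86 with 1 library left out. DESeq2 called 92 and limma-voom 76. Against L. casei MVs 2 genes became 0 and 0 with all libraries of the series, 1 without the replicate block, 36 with the block within each time, 5 without the low-count filter, 1 without the robust option and 4 with flow cell and lane as covariates, and 1 to 3 with 1 library left out. For the difference to the MV-RNA 1 gene passed without the low-count filter, and 0 to 1 with 1 library left out. The share of variation with treatment was 8.89% and, at 10 CPM or more, 4.817%. The intervals within 2-fold numbered 12849 to 15156 with 1 library left out, against 15443. Of 2470 values of 130 named genes under alternatives, 2318 moved by less than the SD between pairs, 147 had the other sign and 0 came past the test. In the 2 fits of all libraries 51 and 54 of the 130 values moved by more than that SD. The leave-outs of OMV, L. casei and RNA libraries were chosen after seeing the data. The causes of these shifts were not tested. Depth limits genes under 1 CPM, and 2 replicates at each time limit all single-time results.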

Other observations

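Replication-dependent histone genes, whose transcripts lack a poly(A) tail and are made in S phase, were lower with E. faecalis MVs than with PBS in most cases, without passing the test. They were looked at after 3 of them had appeared among the genes with the smallest unadjusted p. Of 51 tested, 47 had a negative log2 fold change over both times, 18 had an unadjusted p under 0.05, all lower, and 0 passed (edgeR). Over all genes tested 48.55% had a positive log2 fold change and 1.86% an unadjusted p under 0.05 with a lower level. The median was -0.12, and all 46 with at least 10 CPM were below 0. H2BC6 (chr6:26172059-26184655, plus strand) stood at 75.5 and 75.0 CPM with PBS and 66.2 and 64.5 with MVs at 10 h, and at 70.7 and 76.9 with PBS and 58.0 and 57.0 with MVs at 24 h. In the libraries of the fit every MV library lay under every PBS library, and the log2 fold change was -0.28 ± 0.08. This did not hold in the libraries left aside, scaled with the whole series. There H2BC6 stood at 72.1, 73.8 and 64.6 CPM with MVs and at 63.25, 61.1, 70.55 and 59.4 with PBS. For H2BC17 it was -0.22 ± 0.06 and for H2AC13 -0.22 ± 0.07, and with RLE size factors these 3 values were -0.28, -0.22 and -0.22. The summed level of the histone genes went from 6672 CPM with PBS to 5562 with MVs in replicate 2 and from 5287 to 5013 in replicate 3 at 10 h. At 24 h it went from 5983 to 5534 and from 5528 to 5136 CPM. Reads of near-identical histone genes are hard to assign, and only alignments of mapping quality at least 10 were counted, so values of single genes are uncertain.

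The histone values were set beside those of the other treatments, which share the PBS libraries. The median log2 ratio to the PBS library was -0.25 and -0.08 at 10 h and -0.10 and -0.10 at 24 h for E. faecalis MVs in replicates 2 and 3. For L. casei MVs it was -0.16, 0.04, -0.20 and -0.17 in the same order. For P. mirabilis OMVs it was -0.23, 0.16, -0.12 and -0.12, and for LPS in the medium -0.34, -0.03, -0.07 and -0.10. Set directly against the other vesicles, the median log2 difference of the 51 genes was -0.00 for L. casei MVs and -0.05 for P. mirabilis OMVs. The part of the PBS libraries in these values was not tested. Genes of mitosis and DNA replication had a median of -0.03 against PBS.

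In the balanced layout of the 8 libraries, the replicate number took 34.68% of the variation of log2 CPM over all genes tested, time 19.18% and E. faecalis MVs against PBS 8.89%. Each of the other terms of the layout, which hold the interactions, took between 8.881 and 10.04%, so the share of the treatment lay within the range of those terms. Among genes of at least 10 CPM, E. faecalis MVs took 4.817% and the interactions 4.784 to 7.512%. With the same PBS libraries and these genes, the treatment took 6.434% for L. casei MVs, 7.327% for P. mirabilis OMVs and 3.972% for LPS in the medium. Across 10662 genes, the log2 ratios of the 4 pairs of E. faecalis MVs and PBS correlated with each other at a median r of -0.01 (range -0.10 to 0.10 over 6 correlations), where genes are not independent replicates. For L. casei MVs the median was 0.15, for P. mirabilis OMVs 0.10 and for LPS in the medium 0.00.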
